A study of Rattus norvegicus with 12 samples.

Results

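The genes described here are the Wnt ligands, their Frizzled receptors and Lrp co-receptors, the secreted Dkk and Sfrp inhibitors, and the intracellular core of beta-catenin, the Axin scaffolds and the Tcf/Lef transcription factors. They were chosen by gene name on a whole-genome rat array, and 43 of them had a probe. A gene counted as measured when a probe lay well above the local background on at least 3 of the 12 arrays, which left 37 of the 43, among 19350 measured genes in all. The members not well above background on any array were Wnt3a, Wnt7b, Wnt8a, Wnt8b, Wnt10b and Dkk4. The samples were pituitaries of fetal Wistar rats at gestational day 18, from control and from TCDD-exposed fetuses of both sexes. The labels made 4 groups of 3 arrays, control and TCDD in each sex. TCDD, a chlorinated dioxin, is a ligand of the aryl hydrocarbon receptor, and the series title names maternal exposure. The labels do not give the dose, the day of dosing, the litters or whether an array held 1 gland or a pool, so the p-values measure the spread between these samples only.

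Wnt proteins are secreted signals that bind a Frizzled receptor together with Lrp5 or Lrp6. Binding disables the destruction complex built on the Axin scaffolds, so that beta-catenin accumulates, enters the nucleus and acts with Tcf and Lef factors on target genes, and other Wnt signals run through Frizzleds without beta-catenin. In the embryonic pituitary, Wnt5a is made by the neighbouring diencephalon, Wnt4 is made by the gland itself, and Tcf7l2 restrains growth of the gland.

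Levels are log2 of the processed spot intensity relative to the 75th percentile of the same array, so a difference of 1 is a 2-fold change, and levels of different probes are not set against each other. The exposure labels were checked with Ahrr, the repressor that the aryl hydrocarbon receptor induces. Its level lay between -6.26 and -4.98 on the 6 control arrays and between -0.22 and 0.68 on the 6 exposed arrays (adjusted p = 5.11e-06, limma). The tissue label was checked with a list of anterior pituitary cell and progenitor genes, of which 19 of 20 were measured and between 16 and 19 were well above background on an array. The mean level of that list lay between -1.94 and -0.28, with male TCDD 1 lowest. Its median gene differed by -0.46 between exposed and control arrays over both sexes. The exposed females lay between -1.28 and -1.11 and the control females between -0.88 and -0.28, without overlap, while the exposed males (-1.94 to -0.54) overlapped the control males (-0.72 to -0.37). The part of this difference in the members' values below was not tested. Genes of sensory ganglion neurons, which lie beside the gland, were measured for 27 of 28 markers, and at least 22 of them were well above background on every array. Their mean lay between -0.34 and 1.11 on 6 arrays (male TCDD 1 and 2, female TCDD 1 and 3, and control 2 of either sex) and between -3.73 and -3.21 on the other 6. Thus 4 of the arrays with this signal were exposed and 2 were controls, and the median ganglion marker differed by 1.40 between exposed and control arrays. By group, the mean ranged from -3.68 to -0.23 in male controls, -3.45 to 1.11 in exposed males, -3.73 to 0.32 in female controls and -3.61 to 0.14 in exposed females. The means of the Schwann cell and satellite glia list ran from -2.31 to 0.20, highest on the same 6 arrays, with 9 of 10 markers measured.

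Probe sequences are shown for the members on whose hybridisation the results below turn: the receptor with the smallest p, the feedback scaffold Axin2, and the inhibitor with the widest spread. Coordinates refer to rn4, the build named in the file headers. The Fzd5 probe lies at chr9:63387520-63387579 on the minus strand, the Axin2 probe at chr10:98321105-98321164 on the plus strand, and the Sfrp5 probe at chr1:248655892-248655951 on the plus strand.
Fzd5 probe: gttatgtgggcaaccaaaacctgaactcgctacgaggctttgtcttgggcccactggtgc
Axin2 probe: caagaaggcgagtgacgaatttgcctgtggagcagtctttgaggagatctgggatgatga
Sfrp5 probe: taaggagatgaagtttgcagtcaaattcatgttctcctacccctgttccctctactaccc
All are 60 bases long and printed 5′ to 3′, and no exon annotation of rn4 was used here. Lef1 had 3 probes, and 2 of them overlap by 52 bases on chromosome 2, which makes them a test of how far near-identical probes agree. They lie at chr2:228659730-228659789 and chr2:228659738-228659797 on the plus strand, and the capitals mark the 4 bases of the overlap at which they differ.
Lef1 upstream probe: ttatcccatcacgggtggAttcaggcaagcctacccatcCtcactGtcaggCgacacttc
Lef1 downstream probe: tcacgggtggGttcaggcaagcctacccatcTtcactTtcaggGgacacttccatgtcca
The overlap is 92.3% identical, so at most one of the pair can match the genome at each capital.

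Promoters were read from RefSeq on GRCr8, 250 bases before to 50 bases after the annotated start, and 29 of the 43 members had an entry. CTTTGAT, a core sequence bound by Tcf/Lef factors, was searched on both strands and stood in 2 of the 29 (6.90%), against 3.63% of all 33469 promoters. Those were the promoters of Axin2, a feedback target, and of Tcf7, itself a Tcf factor. They are shown because both genes had lower mean values in exposed arrays, and the capitals mark CTTTGAT.
Axin2 promoter, chr10:94398535-94398834, plus strand: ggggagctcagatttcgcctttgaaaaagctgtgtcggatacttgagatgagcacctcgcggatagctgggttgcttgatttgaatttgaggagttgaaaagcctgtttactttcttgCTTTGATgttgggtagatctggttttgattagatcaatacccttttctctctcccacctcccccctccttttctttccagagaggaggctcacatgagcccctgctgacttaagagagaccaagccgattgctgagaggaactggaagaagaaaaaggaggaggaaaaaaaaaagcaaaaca
Tcf7 promoter, chr10:36954230-36954529, minus strand: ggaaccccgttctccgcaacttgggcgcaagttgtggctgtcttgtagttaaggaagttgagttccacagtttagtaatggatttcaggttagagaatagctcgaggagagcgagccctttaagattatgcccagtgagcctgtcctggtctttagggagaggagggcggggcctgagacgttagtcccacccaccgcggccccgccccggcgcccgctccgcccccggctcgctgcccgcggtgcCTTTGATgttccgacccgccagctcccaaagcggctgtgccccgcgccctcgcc
The match lies at bases 119 to 125 of the Axin2 window and at bases 247 to 253 of the Tcf7 window, where the start site follows base 250. TNGCGTG, the core element of the aryl hydrocarbon receptor, was searched the same way and stood in the promoter of Wnt5a only among the 29 (3.45%), against 4.89% of all promoters. These matches describe letters in a window and are not evidence of binding.

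No member passed an adjusted p of 0.05 (limma, Benjamini-Hochberg over 19350 genes) in any of the 5 comparisons. Over both sexes, 0 of 37 members were called, against 0.0207% of all genes. In males and in females 0 of 37 were called, against 0.0103% of all genes in each. The difference of the exposure effect between the sexes gave 0 of 37, against 0% of all genes, and male against female controls gave 0 of 37, against 0.0103%. At an unadjusted p below 0.05, the exposed and control arrays differed over both sexes for 4 members, Fzd5, Fzd6, Fzd7 and Axin2, which is 10.8% of the members against 6.46% of all genes. In males there were 4, Fzd5, Axin2, Dkk3 and Dkk1, against 9.34% of all genes. In females there was 1, Fzd5, against 2.68% of all genes. For the difference between the sexes there was 1, Dkk3, against 4.46%, and for the control sexes there was none, against 5.50%. Fzd5 was kept only through its controls. Among the other 36 members there were 3 over both sexes (8.33%), 3 in males (8.33%), none in females and 1 for the difference between the sexes (2.78%). These shares lie near the background of all genes, and the values below are therefore given as measurements with their intervals and not as changes.

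The intervals show how large a change the arrays could have missed. Over both sexes the 95% interval lay within a 2-fold change in either direction for 29 of the 37 members and within 0.5 on the log2 scale for 12. The median difference of the members was -0.084, against -0.023 over all genes, and 13 members lay above 0 and 24 below. That balance turned when the ganglion signal was taken into account, and the median of all genes turned with it. Adding the mean of the ganglion markers to the model gave 24 members above 0 and 13 below (median 0.037, against 0.017 over all genes). The 6 arrays where that signal was low, taken alone, gave 20 above and 17 below (median 0.068, against 0.016 over all genes). Male TCDD 3 and female TCDD 2 are the only exposed arrays among those 6, so every value from them rests on a single exposed array in each sex. With slide as a fixed block, 9 lay above and 28 below (median -0.29, against -0.094 over all genes). Among the members described below this block moved Tcf7 to -0.64, Wnt2b to -0.69, Dkk1 to 1.32 and Sfrp5 to 2.03. With this layout the block leaves only contrasts within slides. These set male TCDD 1 alone against the male controls, and the exposed females against female control 3 alone. The control males and control females shared no slide, so sex and slide cannot be told apart between them. That holds for every difference between the control sexes given below.

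**Figure D1:**
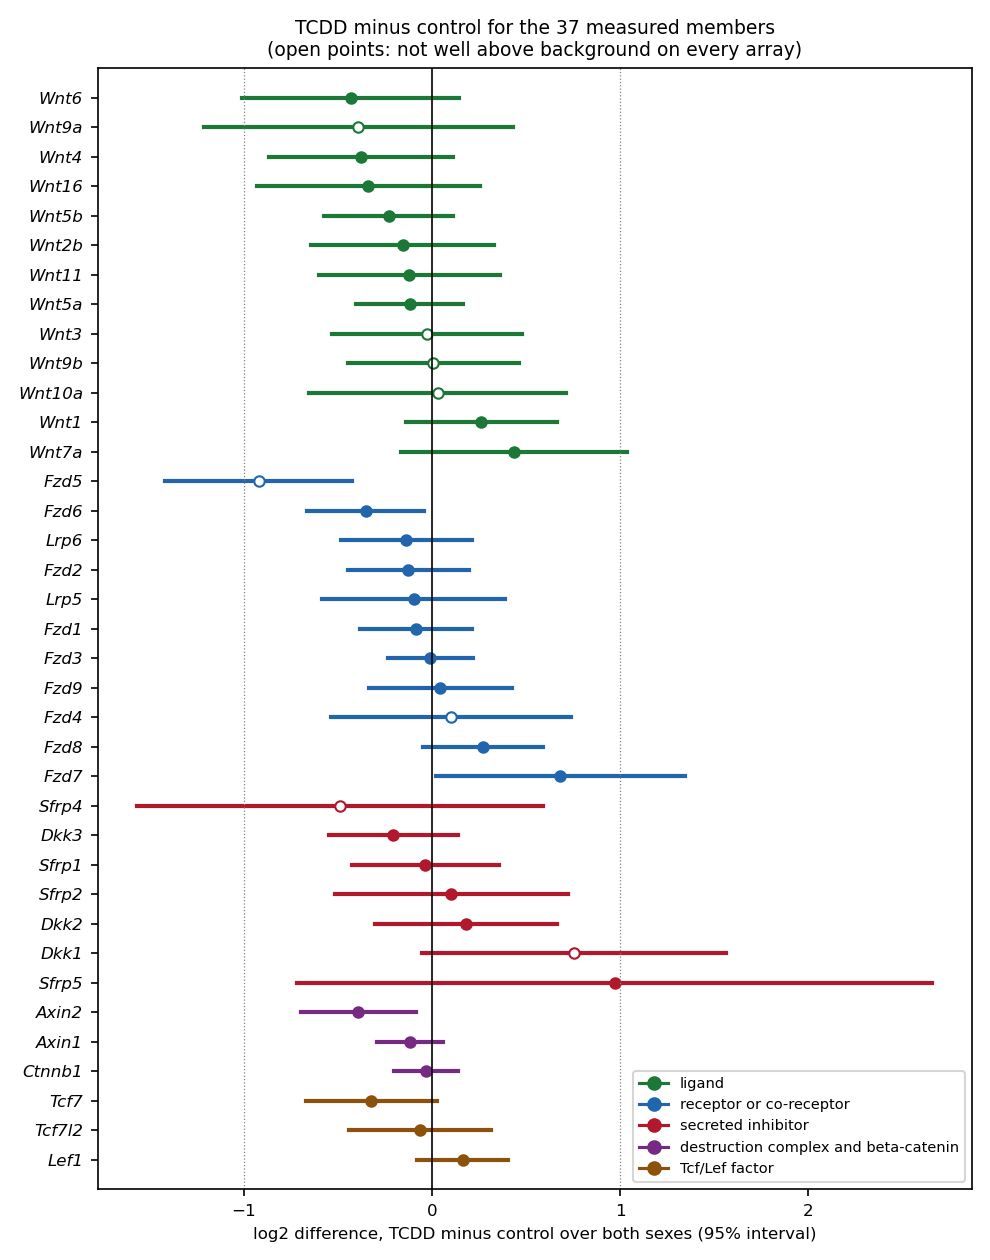
TCDD minus control over both sexes on the log2 scale (horizontal axis) for the 37 measured members, coloured by role; points are estimates, lines are 95% intervals, and open points are members not well above background on every array. The intervals of Fzd5, Fzd6 and Axin2 lie below 0 and that of Fzd7 lies above 0, and no member passed the adjusted threshold.

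Among the 18 Wnt ligands on the array, 13 were measured and 9 were well above background on all 12 arrays. Over both sexes 9 had a lower and 4 a higher mean in exposed arrays, with a median of -0.12, and none was called. Wnt4, the ligand made in the gland, measured -2.38, -2.87 and -2.94 in male controls, -3.54, -3.01 and -2.39 in exposed males, -2.12, -2.95 and -2.91 in female controls and -3.38, -3.20 and -2.91 in exposed females. The groups overlapped in both sexes, although 4 exposed arrays had lower values than any control. The difference over both sexes was -0.37 ± 0.22 (SE; 95% interval -0.86 to 0.11; adjusted p = 0.670), and in females alone it was -0.50 ± 0.31 (SE). Within slides it was -0.81 for the males of slide 1 and -0.25 for the females of slide 3.

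Wnt5a, the diencephalic ligand, measured -2.58, -3.22 and -2.84 in male controls, -3.14, -3.12 and -2.83 in exposed males, -2.74, -3.19 and -2.83 in female controls and -3.16, -2.91 and -2.97 in exposed females. Every exposed array lay inside the range of the controls, and the difference over both sexes was -0.12 ± 0.13 (SE; 95% interval -0.40 to 0.17; adjusted p = 0.725). All 6 arrays with the ganglion signal lay below the other 6 for Wnt5a (at most -2.97 against at least -2.91), and with that signal as a covariate the difference was 0.0014.

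Wnt2b measured -2.56, -3.10 and -2.55 in male controls, -3.64, -3.46 and -2.86 in exposed males, -3.64, -3.40 and -2.40 in female controls and -2.91, -2.90 and -2.80 in exposed females. The male groups overlapped, with male TCDD 1 lowest, and the exposed females lay inside the wide range of the control females. The difference between the effects, male minus female, was -0.86 ± 0.44 (SE; 95% interval -1.84 to 0.11; adjusted p = 0.883), made of -0.59 in males and 0.27 in females. Within slides the exposure difference was -0.90 for the males of slide 1 and -0.47 for the females of slide 3. Among controls, males exceeded females by 0.41 ± 0.31 (SE), with an adjusted p of 1.00. These control groups shared no slide.

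Of the other ligands, Wnt6 had the lowest difference over both sexes, -0.43 ± 0.26 (SE), with group means (SD, n = 3) of -1.57 ± 0.68 in control and -2.15 ± 0.50 in exposed males and -1.89 ± 0.52 in control and -2.18 ± 0.15 in exposed females. Wnt7a had the highest, 0.44 ± 0.27 (SE). Its values were -3.97, -4.36 and -4.99 in male controls, -3.65, -3.63 and -4.91 in exposed males, -4.76, -4.51 and -4.38 in female controls and -4.26, -4.37 and -3.53 in exposed females, so that exposed and control females did not overlap. Wnt7a and the members Fzd8 and Sfrp5 below were singled out after their values were seen. On the 6 arrays low in the ganglion signal the Wnt7a difference was -0.11. Wnt16, Wnt5b and Wnt11 differed by -0.34, -0.23 and -0.12, and Wnt1 by 0.26. The dim ligands Wnt3, Wnt9b and Wnt10a, well above background on 9, 9 and 11 arrays, differed by -0.028, 0.0079 and 0.030. Wnt9a was well above background on 3 arrays, male TCDD 3, male control 3 and female control 1, and had a measured difference of -0.39 ± 0.37 (SE).

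The 9 measured Frizzleds and the co-receptors Lrp5 and Lrp6 made up 11 members, all of those on the array. Their median difference over both sexes was -0.084, with 4 above 0 and 7 below. Fzd5 had the smallest p of all members, with values of -6.40, -6.41 and -5.96 in male controls, -7.14, -7.53 and -6.88 in exposed males, -5.60, -6.25 and -6.23 in female controls and -7.34, -6.55 and -6.94 in exposed females. All 6 exposed values lay below all 6 control values, and groups that did not overlap, in either direction, were seen for 0.419% of all genes. These values are not all measured levels, since the probe was well above background only on male control 3 and the 3 female controls, and it was measured at all only through the controls. In females, where all 3 controls were well above background, the control mean on these arrays lay at least 1.54-fold above the exposed mean. For this, exposed arrays were set at the lowest signal that counts as well above background or at the spot's own where higher. The fold rests on controls that brought the probe past the filter, so it is no separate support, and Fzd5 was not called in females. In males 1 of 3 controls was well above background, and no fold is given. The means of the values as read were -6.14 in controls and -7.06 in exposed arrays, a difference of -0.92 ± 0.22 (SE; 95% interval -1.42 to -0.42; adjusted p = 0.585). A different background correction (normexp, with quantile normalization) adds an offset of 50 to every intensity, which by itself shrinks log2 differences of dim probes. With that correction the difference was -0.14. Within slides it was -0.88 for the males of slide 1 and -0.72 for the females of slide 3. On the 6 arrays low in the ganglion signal it was -0.67.

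Fzd6 measured -2.76, -3.09 and -2.78 in male controls, -3.54, -3.28 and -2.86 in exposed males, -2.39, -2.95 and -2.74 in female controls and -3.17, -2.88 and -3.09 in exposed females. Exposed and control arrays overlapped in both sexes, and 4 exposed arrays lay below every control. The difference over both sexes was -0.35 ± 0.14 (SE; 95% interval -0.66 to -0.040; adjusted p = 0.670), and a second Fzd6 probe gave -0.21. The 6 arrays with the ganglion signal were the 6 lowest for Fzd6, and the difference with that signal as a covariate was -0.21.

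Fzd7 measured -4.97, -4.23 and -4.87 in male controls, -3.20, -3.84 and -4.96 in exposed males, -5.33, -4.41 and -4.64 in female controls and -3.78, -4.21 and -4.37 in exposed females. The female groups did not overlap, whereas male TCDD 3 lay among the male controls. The difference over both sexes was 0.68 ± 0.30 (SE; 95% interval 0.022 to 1.34; adjusted p = 0.670), a 1.60-fold higher geometric mean in exposed arrays. Fitted with the ganglion signal it was 0.41, and on the 6 arrays low in that signal 0.37. Within slides it was 1.49 for the males of slide 1 and 0.52 for the females of slide 3.

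**Figure D2:**
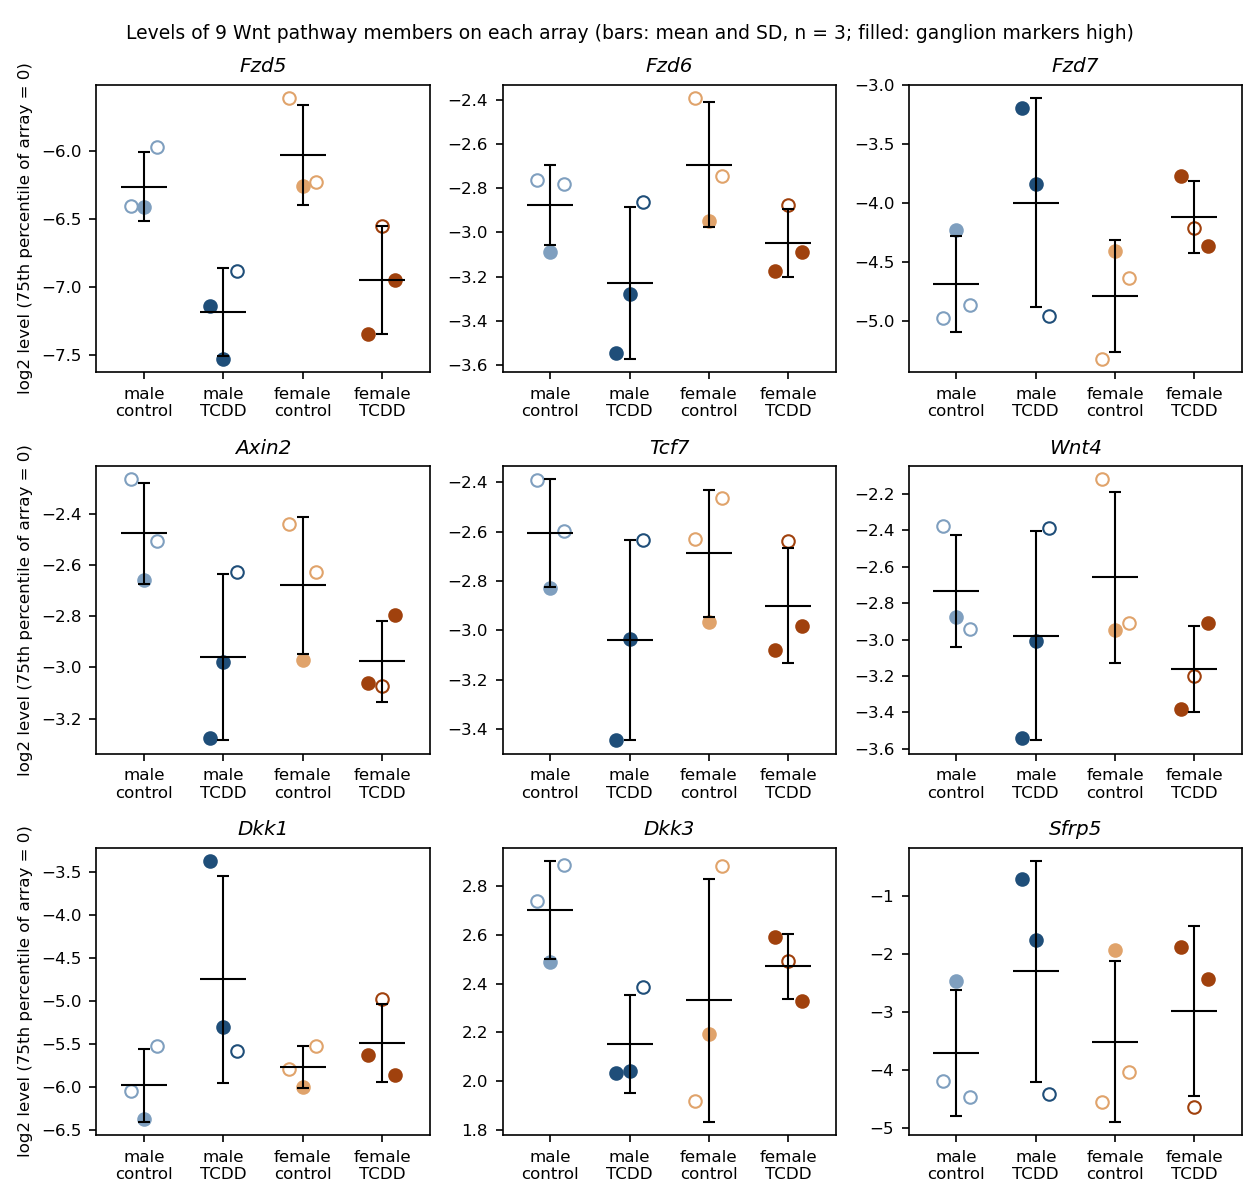
Level of 9 members on each of the 12 arrays (vertical axis, log2 relative to the 75th percentile of the array) by group; bars are the mean and SD of 3 arrays, and filled points are the 6 arrays on which sensory ganglion markers were high. For Fzd5 all exposed points lie below all control points, and for Sfrp5 the filled points lie above the open ones in every group that holds both.

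Fzd2 differed in sign between the sexes, -0.37 in males and 0.12 in females, with a difference of the effects of -0.48 ± 0.29 (SE; 95% interval -1.13 to 0.16; adjusted p = 0.883). Its values were 0.10, -0.18 and 0.16 in male controls, -0.71, -0.39 and 0.079 in exposed males, -0.23, -0.50 and 0.026 in female controls and -0.21, 0.11 and -0.26 in exposed females, with overlap in both sexes. Male TCDD 1 was the lowest of the 12 arrays. Within slides the Fzd2 difference was -0.73 for the males of slide 1 and -0.15 for the females of slide 3. Fzd4 was named for the control sexes and measured -6.80, -5.72 and -5.29 in male controls, -4.96, -5.89 and -5.35 in female controls, -6.15, -5.79 and -5.15 in exposed males and -5.33, -5.37 and -5.63 in exposed females. Male control 1, where the probe was not well above background, was the lowest, and the control sexes differed by -0.53 ± 0.41 (SE; 95% interval -1.43 to 0.37; adjusted p = 1.00).

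The remaining receptors differed as follows. Fzd8 measured -2.17, -1.81 and -1.84 in male controls, -1.06, -1.49 and -1.92 in exposed males, -1.65, -1.58 and -1.98 in female controls and -1.49, -1.74 and -1.70 in exposed females. Its groups overlapped in both sexes, with male TCDD 1 highest, and the difference was 0.27 ± 0.14 (SE). Fzd1 differed by -0.084 ± 0.13 (SE), Fzd9 by 0.044 ± 0.17 (SE) and Fzd3 by -0.0098 ± 0.10 (SE). Lrp5 and Lrp6, the co-receptors of the beta-catenin branch, differed by -0.098 ± 0.22 (SE) and -0.14 ± 0.16 (SE), and a second Lrp6 probe gave 0.026. Their intervals, -0.58 to 0.39 and -0.48 to 0.21, lay within a 2-fold change.

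Of the 8 secreted inhibitors on the array 7 were measured, with 4 higher and 3 lower means in exposed arrays and a median of 0.10. Dkk1 blocks Lrp5 and Lrp6 and measured -6.04, -6.37 and -5.53 in male controls, -3.37, -5.30 and -5.58 in exposed males, -5.79, -5.99 and -5.52 in female controls and -5.63, -4.98 and -5.86 in exposed females. Male TCDD 1 stood far above the other 11 arrays, which lay between -6.37 and -4.98. The difference was 0.75 ± 0.36 (SE; 95% interval -0.054 to 1.56; adjusted p = 0.670) over both sexes and 1.23 ± 0.52 (SE) in males, and without male TCDD 1 it was 0.41 over both sexes. Within slides it was 2.61 for the males of slide 1 and 0.030 for the females of slide 3. Slide 1 held a single exposed male, male TCDD 1. A second Dkk1 probe, well above background on only 1 array, read -7.16 on male TCDD 1, within its range of -9.07 to -6.35. It differed by 0.18 over both sexes. The high reading of male TCDD 1 was thus seen with the first probe only, and the second was too dim to check it.

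Dkk3, a relative of Dkk1 that does not act on Lrp6 in the same way, had the smallest p for a difference between the sexes. It measured 2.74, 2.49 and 2.88 in male controls, 2.03, 2.04 and 2.39 in exposed males, 1.92, 2.19 and 2.88 in female controls and 2.59, 2.49 and 2.33 in exposed females. All exposed males lay below all control males, while the exposed females lay inside the wide range of the control females. The difference was -0.55 ± 0.22 (SE) in males and 0.14 ± 0.22 (SE) in females, and the effects differed by -0.69 ± 0.31 (SE; 95% interval -1.37 to -0.0056; adjusted p = 0.883). Among controls, males exceeded females by 0.37 ± 0.22 (SE; 95% interval -0.11 to 0.85; adjusted p = 1.00). Within slides the exposure difference was -0.67 for the males of slide 1 and -0.41 for the females of slide 3, so that the females of slide 3, set against 1 control, differed in the same direction as the males.

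Exposed and control males did not overlap for Dkk3 and for Fzd5, and exposed and control females did not overlap for Fzd7, Wnt7a and Fzd5. Fzd5 was kept only through its controls and is left out of the shares. Among the other 36 members there was then 1 in males (2.78%), against 14.4% of all genes, and 2 in females (5.56%), against 6.96% of all genes.

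Sfrp5, a secreted protein that binds Wnts through a Frizzled-like domain, had the widest spread of all members (SD over the 12 arrays 1.39, the 98.4th percentile of all genes). It measured -4.19, -2.47 and -4.46 in male controls, -0.71, -1.76 and -4.41 in exposed males, -4.56, -1.93 and -4.03 in female controls and -1.88, -4.64 and -2.42 in exposed females. Every group held both high and low arrays. The high ones were the 6 arrays with the ganglion signal, from -2.47 to -0.71, and the other 6 lay from -4.64 to -4.03. A second Sfrp5 probe, well above background on 9 arrays, read -6.10, -4.84 and -6.57 in male controls, -2.50, -3.80 and -6.32 in exposed males, -6.10, -4.11 and -6.37 in female controls and -3.76, -6.13 and -4.39 in exposed females. Its high arrays were the same 6. The exposure difference from the first probe was 0.97 ± 0.76 (SE; 95% interval -0.72 to 2.66; adjusted p = 0.671), it was 0.049 when the ganglion marker mean entered the model, and it turned to -0.22 without the 6 arrays.

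**Figure D3:**
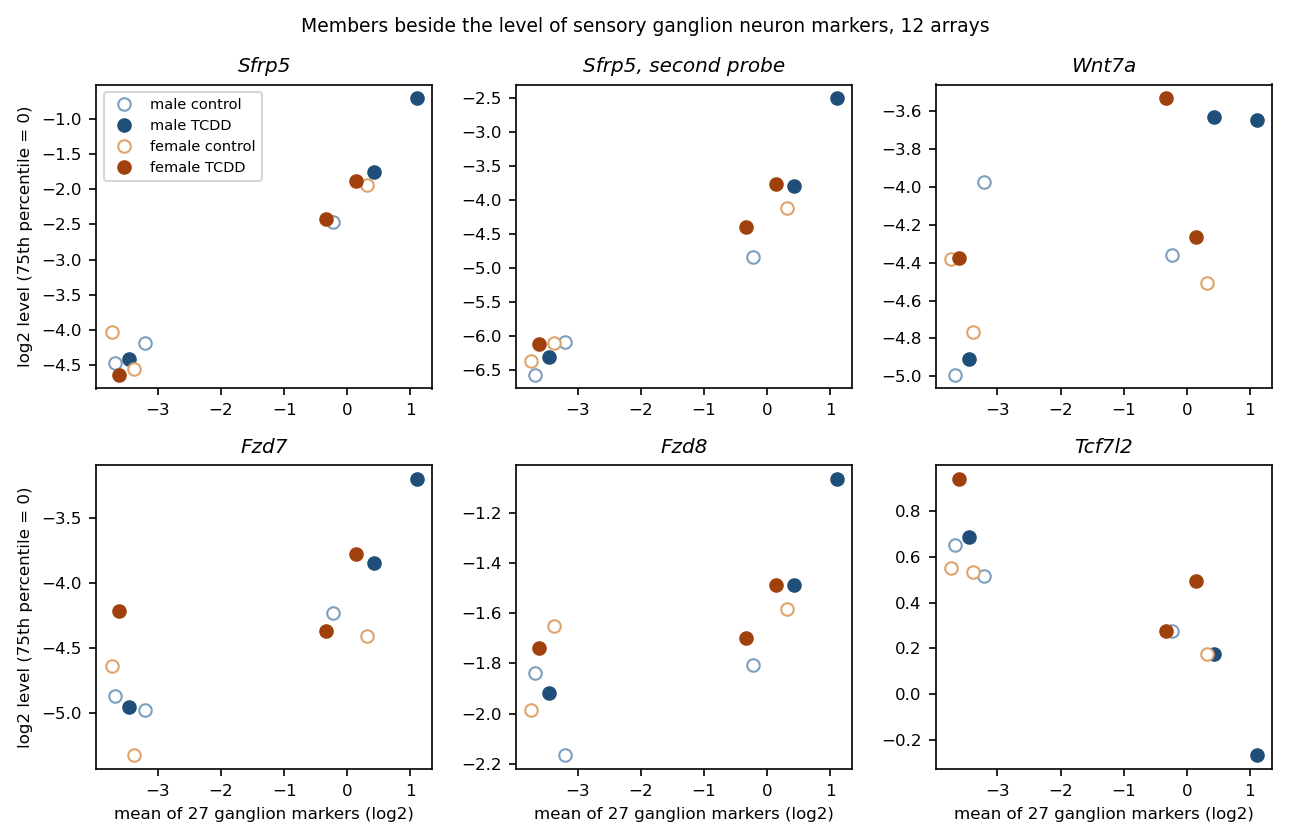
Level of members on each array (vertical axis, log2 relative to the 75th percentile) against the mean level of 27 sensory ganglion neuron markers on the same array (horizontal axis, log2); filled points are exposed and open points control arrays, and 2 panels show the 2 probes of Sfrp5. Both Sfrp5 probes lie higher on the 6 arrays at the right, Tcf7l2 lies lower there, and Wnt7a, Fzd7 and Fzd8 overlap between the sides.

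Sfrp5 was the only member whose 6 arrays with the ganglion signal all lay above the other 6, 2.70% of the members against 7.91% of all genes. The opposite split, with those 6 arrays below the rest, was seen for 5 members, Fzd6, Tcf7, Tcf7l2, Wnt5a and Wnt5b, which is 13.5% against 7.84% of all genes. In bulk tissue, fewer cells of a type and less RNA per cell cannot be told apart, and what part the ganglion signal took in these levels was not tested beyond the 2 fits given.

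Sfrp1 measured -0.38, -0.40 and -0.041 in male controls, -0.90, -0.69 and -0.34 in exposed males, -0.75, -0.88 and -0.031 in female controls and -0.35, 0.13 and -0.54 in exposed females. Its difference was -0.37 in males and 0.30 in females, and the effects differed by -0.67 ± 0.35 (SE; 95% interval -1.45 to 0.11; adjusted p = 0.883), with overlap in both sexes. Within slides the Sfrp1 difference was -0.62 for the males of slide 1 and -0.22 for the females of slide 3. Sfrp4 was well above background on 3 arrays, male control 1, male TCDD 1 and female control 2. It measured -6.04, -6.84 and -7.98 in male controls, -5.66, -6.91 and -8.09 in exposed males, -6.20, -5.26 and -6.45 in female controls and -6.22, -7.28 and -7.53 in exposed females. No exposed female lay well above background, 1 of 3 control females did, and no fold is given for females (adjusted p = 1.00). The control sexes differed by -0.98 ± 0.69 (SE; 95% interval -2.51 to 0.54; adjusted p = 1.00), and 1 array in each carried a signal well above background. Sfrp2 and Dkk2 differed over both sexes by 0.10 ± 0.28 (SE) and 0.18 ± 0.22 (SE).

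Beta-catenin, encoded by Ctnnb1, measured 0.15, 0.065 and 0.19 in male controls, -0.14, -0.023 and 0.27 in exposed males, 0.20, 0.065 and 0.15 in female controls and 0.16, 0.28 and 0.083 in exposed females. Its SD over the 12 arrays, 0.12, was the smallest of the members, at the 15.5th percentile of all genes. The difference was -0.032 ± 0.076 (SE; 95% interval -0.20 to 0.14; adjusted p = 0.876), so that a mean change beyond 0.20 in either direction lay outside the interval. Axin1, the constitutive scaffold of the destruction complex, differed by -0.12 ± 0.079 (SE; 95% interval -0.29 to 0.057; adjusted p = 0.670).

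Axin2 is the scaffold that beta-catenin itself induces and is widely read as a gauge of the pathway. It measured -2.26, -2.66 and -2.51 in male controls, -3.28, -2.98 and -2.62 in exposed males, -2.44, -2.97 and -2.63 in female controls and -3.06, -3.07 and -2.79 in exposed females. Exposed and control arrays overlapped in each sex, and 4 exposed arrays had lower values than any control. The difference was -0.39 ± 0.14 (SE; 95% interval -0.69 to -0.087; adjusted p = 0.670) over both sexes, a 1.31-fold lower geometric mean, with -0.48 ± 0.19 (SE) in males and -0.30 ± 0.19 (SE) in females. Within slides it was -0.80 for the males of slide 1 and -0.35 for the females of slide 3. Fitted with the ganglion signal it was -0.29, and on the 6 arrays low in that signal -0.39.

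Tcf7 measured -2.39, -2.83 and -2.60 in male controls, -3.44, -3.03 and -2.64 in exposed males, -2.63, -2.97 and -2.46 in female controls and -3.08, -2.64 and -2.98 in exposed females. The 6 lowest arrays were those with the ganglion signal, and male TCDD 1 was the lowest of all. The difference was -0.32 ± 0.16 (SE; 95% interval -0.67 to 0.025; adjusted p = 0.670), and it was -0.16 with the ganglion signal as a covariate. Axin2 and Tcf7, the members with CTTTGAT in the promoters printed above, both had lower means in exposed arrays in both sexes. Neither was called. Those promoters were printed because of the lower means, so the shared direction is no separate evidence. Over both sexes 24 of the 37 measured members lay below 0 and 13 above. Whether CTTTGAT goes with a lower level was not tested.

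Tcf7l2, which restrains growth of the embryonic gland, measured 0.51, 0.28 and 0.65 in male controls, -0.27, 0.18 and 0.69 in exposed males, 0.53, 0.18 and 0.55 in female controls and 0.49, 0.94 and 0.28 in exposed females. Male TCDD 1 was the lowest and female TCDD 2 the highest array. The difference was -0.066 ± 0.17 (SE; 95% interval -0.44 to 0.31; adjusted p = 0.888), and it turned to 0.051 without male TCDD 1, to 0.12 with the ganglion signal as a covariate and to 0.070 with a second probe. Lef1 measured -2.80, -2.94 and -2.82 in male controls, -2.90, -2.72 and -2.65 in exposed males, -2.58, -2.96 and -3.18 in female controls and -2.71, -2.52 and -2.79 in exposed females. Its groups overlapped, with a difference of 0.16 ± 0.11 (SE; 95% interval -0.078 to 0.40; adjusted p = 0.670). The upstream and downstream members of the overlapping Lef1 probe pair gave differences of 0.14 and 0.26, in the same direction. Tcf7l1, the repressor of the family, was outside the name rule because the array lists it under the older symbol Tcf3, and it differed by -0.0013 ± 0.11 (SE).

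The sexes were set side by side in the 12 arrays, since the male and female comparisons share no array. Both comparisons used slide 2, with male TCDD 2 and 3 on the exposed side and female controls 1 and 2 on the control side. The male and female differences are therefore not independent of each other. The difference had the same sign in males and females for 19 of the 37 members, 51.4%, against 55.9% of all genes. Fzd7 differed by 0.69 ± 0.42 (SE) in males and 0.67 ± 0.42 (SE) in females. Fzd6 gave -0.35 in males and -0.35 in females. Among secreted inhibitors, 6 of 7 had a higher mean in exposed than in control females (median 0.30). In males 3 of 7 had one (median -0.0021). The medians of all genes were -0.035 in females and -0.0097 in males. Within slide 3, against 1 control, exposed females were higher for Dkk1 (0.030) and Sfrp5 (1.05). They were lower there for Dkk2, Dkk3, Sfrp1, Sfrp2 and Sfrp4.

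**Figure D4:**
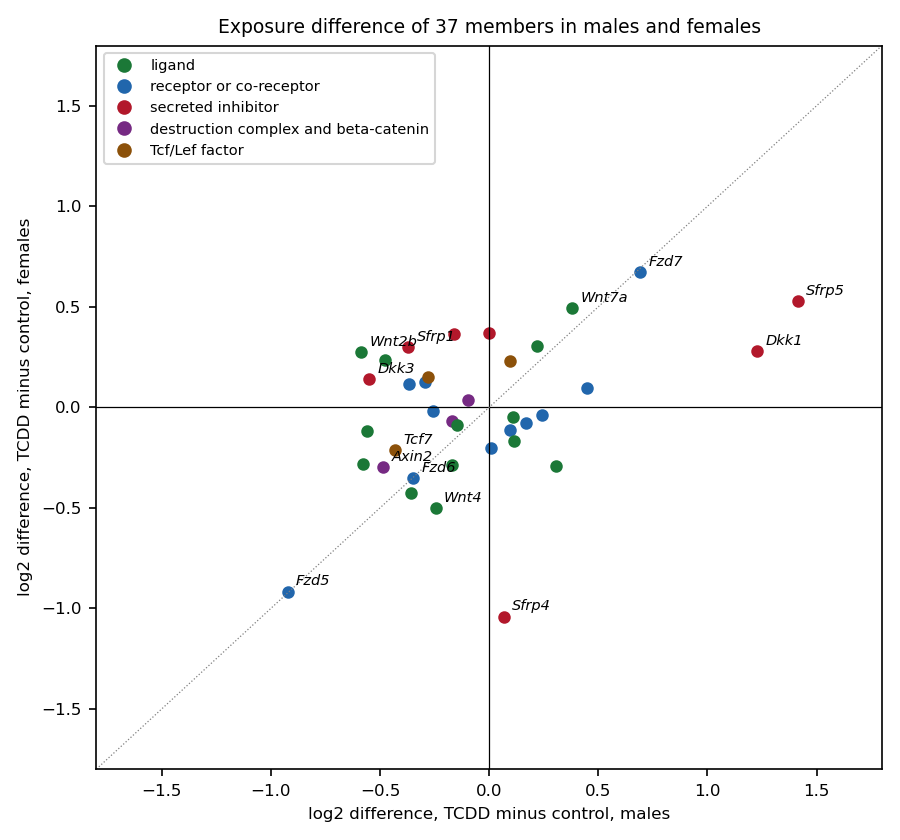
TCDD minus control in females (vertical axis) against males (horizontal axis), both log2 differences of 3 against 3 arrays, for the 37 members coloured by role; the dotted line marks equal differences. Fzd6 and Fzd7 lie near that line, and Dkk3, Wnt2b and Sfrp1 are below 0 in males and above 0 in females. Within slides Dkk3, Wnt2b and Sfrp1 had negative differences in both sexes. Fzd5 was not well above background on any exposed array.

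Single arrays stood at the extremes for many members. Male TCDD 1 was the lowest of the 12 arrays for 19 members, 51.4% against 31.4% of all genes, and the highest for 4 members, 10.8% against 22.5% of all genes. Its ganglion marker mean was the highest and its anterior pituitary mean the lowest of all arrays, and their part in these levels was not tested. Female TCDD 2, an exposed array with a low ganglion signal, was the highest for 10 members, 27.0% against 15.8% of all genes. The median SD of a member over the 12 arrays was 0.34, against 0.24 over all genes.

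Outside the members, 102 further genes of the pathway were listed and 81 were measured. None was called in any of the 5 comparisons, and at an unadjusted p below 0.05 there were 4 over both sexes (4.94%, against 6.46% of all genes), 5 in males (6.17%, against 9.34%) and 3 in females (3.70%, against 2.68%). There were 3 for the difference between the sexes (3.70%, against 4.46%) and 5 between the control sexes (6.17%, against 5.50%). Over both sexes 37 lay above 0 and 44 below, with a median of -0.013. Among the R-spondins and their receptors, which amplify Wnt signals, 6 of 9 were measured, with 2 above 0 and 4 below. Of the 18 common transcriptional targets 15 were measured, with 4 above 0 and 11 below and a median of -0.058.

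Those 4, a share below that of all genes, are given as values, and were Rspo1, Cd44, Ccnd2 and Ccnd1. Rspo1, a secreted amplifier, measured -4.78, -4.73 and -4.66 in male controls, -5.28, -4.84 and -4.95 in exposed males, -4.56, -4.74 and -4.40 in female controls and -5.17, -4.91 and -5.17 in exposed females. All 6 exposed arrays lay below all 6 controls, where groups without overlap in either direction made up 0.419% of all genes, and the difference was -0.41 ± 0.12 (SE; 95% interval -0.67 to -0.14; adjusted p = 0.670). With normexp and quantile normalization, where the offset of 50 shrinks differences of dim probes, it was -0.11. The cyclins Ccnd1 and Ccnd2, which drive entry into the cell cycle, differed by -0.34 ± 0.12 (SE) and -0.39 ± 0.12 (SE), and the adhesion receptor Cd44 differed by 0.53 ± 0.17 (SE). With the ganglion signal as a covariate these were -0.22, -0.26 and 0.36, and Rspo1 was -0.34.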

How the data were processed

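Total RNA was amplified, labelled with Cy3 and hybridised to one-colour Agilent arrays, per the labels' protocols. The authors deposited spot intensity values on a linear scale, written by Feature Extraction 10.7.1.1 per the file headers, while the submitters' processing notes name 9.5.1.1. The deposited value table also holds intensity values, with a median of 83.5 in each column and ranks that match the scanner values; quantile normalization was inferred from this and is not stated in the sources used here. Processed intensities were taken to log2 and centred on each array's 75th percentile, without control and outlier spots, and spots of a probe were averaged. Of 30367 probes, the 22430 with a signal well above background on at least 3 arrays and at least 10 values were kept, and each gene took its brightest remaining probe. Between 75.1% and 78.4% of the 42877 gene spots of an array were well above background, and precision is limited by how many arrays there are.

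limma 3.58.1 in R 4.3.3 was fitted to all 12 arrays with a mean per group and a variance trend with intensity. The fit was checked on simulated data with independent noise on each array. That simulation held no slide effect and no shared ganglion signal, so it does not cover them. P-values were adjusted over 19350 genes (Benjamini-Hochberg). Over both sexes means the average of the male and female differences. A group with no array well above background has only a bound: each of its arrays was set to its own value or to the smallest value that was well above background there, whichever was larger. The 12 arrays lay on 3 slides: slide 1 held the male controls and male TCDD 1, slide 2 male TCDD 2 and 3 and female controls 1 and 2, and slide 3 female control 3 and the exposed females. Alternatives covered background, scaling, filter, variance model, slide, replicate number, ganglion signal and leaving out each array.

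Members, lists and named genes were chosen with earlier results of these data known. Full values are given for the 6 members with the smallest p over both sexes, the 4 with the smallest p in each of the other 4 comparisons, 6 always named (Ctnnb1, Axin2, Lef1, Tcf7l2, Wnt5a, Wnt4), and 3 added after their values were seen (Sfrp5, Wnt7a, Fzd8).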

Additional observations from a re-analysis of the deposited data

Results flagged for a closer look

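Each member's 6 control arrays and 6 exposed arrays were searched for 1 array far from the rest (Dixon's test at the 95% level), which chance gives in about 5% of groups. It was found in 4 of 74 groups (5.41%). Dkk1 on male TCDD 1 stood at -3.37, above the other exposed arrays, while its dimmer second probe read -7.16 there. Fzd3 on female control 1 stood at -1.58, above the other controls. Wnt1 on female TCDD 2 stood at -4.55, above the other exposed arrays. Wnt3 on female control 1 stood at -5.42, above the other controls.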

How the results depend on the processing

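The count of called genes over both sexes was 4 and stayed within 1.5 times of that under both other scalings, the deposited table, either filter, normexp, no variance trend and slide as a random block. It was 109 with array quality weights, 15 with slide as a fixed block, 11 with the ganglion covariate and 0 without the 6 arrays with ganglion signal (540 at an unadjusted p below 0.05, limma); leaving out each array gave 4 to 9, with 9 when male TCDD 1 was left out, 7 for male TCDD 3 and 7 for female control 1. In males it was 2, and 1 with the filter at all 12 arrays, 4 without the trend, 5889 with weights, 1 with only the groups compared, 26 with slide as a fixed block, 276 within slide 1, 4 with the covariate and 0 without the 6 arrays (931 unadjusted), and 2 to 3 leaving out each array. In females it was 2, and 1 with normexp, 1 with the stricter filter, 0 within slide 3 (531 unadjusted) and 0 without the 6 arrays (488 unadjusted), and 2 to 3 leaving out each array. The difference between the sexes gave 0 genes (863 unadjusted), 6 with slide as a fixed block, and 0 leaving out each array. Control males against control females gave 2 genes, and 1 with normexp, 1 with the stricter filter, 0 with only the groups compared (1107 unadjusted), 10 with slide as a fixed block and 0 without the 6 arrays (814 unadjusted); leaving out each array gave 1 to 2, with 1 without male control 2.

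Members were called only under array quality weights (limma). Over both sexes this was Fzd5 (-1.17, adjusted p = 0.0366), which was not well above background on any exposed array. In males it was 14 of 37, where 30.4% of all genes were called. Male TCDD 2 had a weight of 9.62, against 0.33 to 2.02 on the other arrays, so this setting leans on that array. Of 20 named members, 10 kept the sign of their difference over both sexes under every alternative run. The sign turned with the ganglion covariate for Ctnnb1 (0.037), Fzd2 (0.037), Sfrp1 (0.13), Tcf7l2 (0.12) and Wnt5a (0.0014). It turned without the 6 arrays for Ctnnb1 (0.10), Fzd2 (0.083), Sfrp1 (0.20), Sfrp5 (-0.22), Tcf7l2 (0.25) and Wnt7a (-0.11). It turned with slide as a fixed block for Fzd4 (-0.15) and Sfrp4 (0.37), with weights for Fzd4 (-0.031) and with the second probe for Tcf7l2 (0.070). Leaving out each array, Ctnnb1 ran from -0.091 to 0.012, Fzd4 from -0.11 to 0.26, Sfrp1 from -0.13 to 0.096, Tcf7l2 from -0.19 to 0.051 and Wnt2b from -0.28 to 0.030. The causes were not tested.

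The replicate block, from numbers in the titles, gave 2 called genes over both sexes, against 4 without it, and the same counts as without it in the other 4 comparisons. Same-numbered arrays correlated between -0.70 and 0.75 in their deviations from group means, and differently numbered arrays between -0.72 and 0.69. The numbers were not taken as pairs, and whether they mark litters or pairs cannot be read from these correlations. Of the 37 members, 8 were not well above background on every array, and their differences are the least certain.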
